A study of Rattus norvegicus with 6 samples.

Results

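YAP and TEAD targets and regulators were examined as a set of 10 rat genes: Ankrd1, Ccn1, Ccn2, Amotl2, Ajuba, Lats2, Yap1, Wwtr1, Tead1 and Tead4. The members were taken as all probe sets that the platform annotation ties to exactly 1 of these symbols, with the older names Cyr61 and Ctgf counted as Ccn1 and Ccn2. This gave 14 probe sets of the 31042 tested, for 9 of the 10 genes. Yap1 had no probe set under its symbol in the annotation used here, so its RNA level is not analysed here. Ankrd1, Ajuba and Tead1 had 2 probe sets each, Tead4 had 3, and the other 5 measured genes had 1. No filter on low values was applied.

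The samples were IEC-6 cells, a non-tumorigenic rat intestinal epithelial line with an undifferentiated crypt phenotype, grown in medium with 5% fetal bovine serum. ShSuz12 cells carried a lentiviral short hairpin RNA against Suz12, the subunit that the H3K27 methyltransferase complex PRC2 needs for its activity, and ShControl cells carried a scrambled hairpin in the same kind of vector. RNA from 3 independent experiments per group was hybridized to 6 Affymetrix rat genome arrays in all. Both groups were puromycin-selected populations, each made with a single hairpin, and about 25% of the cells were estimated to have been infected before selection. None of the sources used here gives the culture density at which RNA for the arrays was isolated. Replicates were separate experiments with the same 2 populations, so p-values measure the spread between experiments and not between independently made lines.

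YAP (Yap1) and TAZ (Wwtr1) are transcriptional coactivators that cannot bind DNA themselves and reach their target genes through the TEAD factors. The Hippo kinases Lats1 and Lats2 phosphorylate both coactivators and keep them out of the nucleus when cells are crowded. In the intestinal epithelium YAP and TAZ are best known for their part in regeneration after injury. Several of their targets feed back on the pathway, among them Lats2 itself and the angiomotin family member Amotl2.

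The 6 members with a promoter window in the RefSeq table of build GRCr8 were Ccn1, Ccn2, Amotl2, Ajuba, Yap1 and Wwtr1, whereas Ankrd1, Lats2, Tead1 and Tead4 had none. Each window runs from 250 bases before the annotated start to 50 bases after it. The TEAD motif, searched as GGAATG on both strands, was present in 5 of these 6 windows, against 13.9% of 27457 windows, 1 for each gene of the table. In the lists described below, it was present in 2 of 12 windows of other YAP and TAZ targets. It was also present in 5 of 28 windows of Hippo pathway components and 2 of 9 of the members' paralogs. Windows with at least 3 matches made up 0.106% of the table, and Ccn2 was one of them. The windows of the 4 measured target genes are shown, with the matches to GGAATG or its reverse complement in capitals, so that these letters can be read beside the array values of the same genes.
Ccn2, GRCr8 chr1:22624565-22624864, minus strand: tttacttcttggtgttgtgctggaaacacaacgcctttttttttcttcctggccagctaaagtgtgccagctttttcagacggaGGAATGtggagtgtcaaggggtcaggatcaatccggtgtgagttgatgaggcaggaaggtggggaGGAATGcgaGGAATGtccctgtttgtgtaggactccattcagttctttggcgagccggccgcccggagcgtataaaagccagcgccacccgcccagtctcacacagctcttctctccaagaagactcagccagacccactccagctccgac
Ccn1, GRCr8 chr2:237225640-237225939, minus strand: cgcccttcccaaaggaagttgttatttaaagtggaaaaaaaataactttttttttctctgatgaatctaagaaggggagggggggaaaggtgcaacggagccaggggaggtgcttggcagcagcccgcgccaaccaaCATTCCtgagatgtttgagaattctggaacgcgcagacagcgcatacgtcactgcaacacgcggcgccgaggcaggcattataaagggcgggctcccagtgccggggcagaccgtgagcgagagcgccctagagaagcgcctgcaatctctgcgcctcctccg
Amotl2, GRCr8 chr8:112182376-112182675, plus strand: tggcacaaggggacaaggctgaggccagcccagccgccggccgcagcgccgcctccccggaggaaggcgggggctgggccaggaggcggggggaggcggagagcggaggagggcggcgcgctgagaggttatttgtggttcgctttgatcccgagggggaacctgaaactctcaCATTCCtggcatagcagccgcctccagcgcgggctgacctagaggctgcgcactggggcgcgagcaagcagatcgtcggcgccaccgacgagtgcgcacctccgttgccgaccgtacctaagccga
Ajuba, GRCr8 chr15:31999993-32000292, minus strand: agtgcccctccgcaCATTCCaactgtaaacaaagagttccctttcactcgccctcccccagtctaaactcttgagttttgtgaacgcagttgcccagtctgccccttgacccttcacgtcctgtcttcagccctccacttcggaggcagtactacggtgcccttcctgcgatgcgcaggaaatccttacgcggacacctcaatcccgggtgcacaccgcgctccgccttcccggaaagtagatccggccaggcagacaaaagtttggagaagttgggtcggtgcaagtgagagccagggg
The 3 matches of Ccn2 began 166, 101 and 92 bases upstream of its start, all on the strand shown. Ccn1, Amotl2 and Ajuba each held 1 match, on the opposite strand, beginning 113, 76 and 236 bases upstream. The Yap1 window held 1 match as well, 116 bases upstream, and the Wwtr1 window held none. Neither the AP-1 motif TGANTCA nor the CArG box bound by serum response factor was found in any of the 6 windows, and these 2 motifs occurred in 7.33% and 1.64% of all windows. No binding of a TEAD factor was measured in this series.

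**Figure D1:**
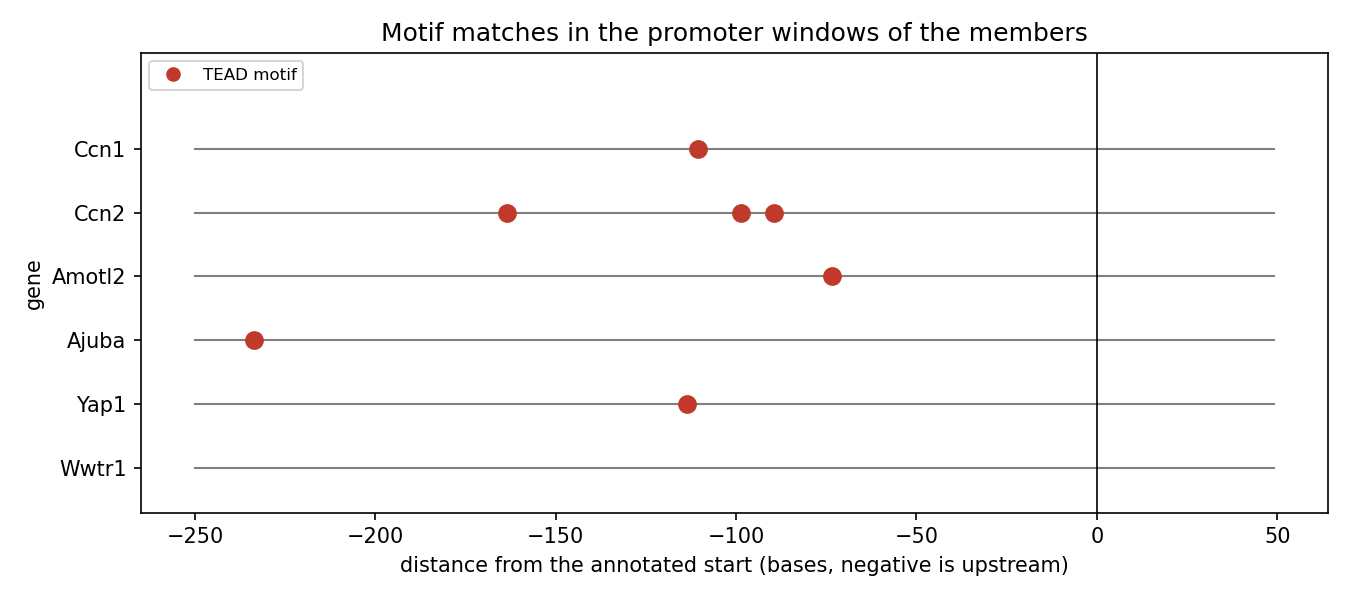
Position of motif matches in the promoter windows of the 6 members that have one, in bases from the annotated start, negative values lying upstream. Each grey line is 1 window, and the red points are matches to the TEAD motif. Ccn2 has 3 matches, Ccn1, Amotl2, Ajuba and Yap1 have 1 each, and Wwtr1 has none.

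Suz12, the gene targeted by the hairpin gctgacaatcaaatgaatcat, had log2 values of 5.82, 5.77 and 5.91 in ShSuz12 cells, against 8.45, 8.55 and 8.77 in ShControl cells, so that every ShSuz12 value lay below every ShControl value. The median log2 value of an array was 6.26 to 6.27 in ShSuz12 cells and 6.15 to 6.17 in ShControl cells, and no array stood apart, with Pearson's r across probe sets of at least 0.997 within a group. Among 10 markers of intestinal epithelium, Cdh1 and Krt8 lay high on the array, while Epcam, Krt18, Vil1 and Cldn7 had values of 3.41 to 4.66 on every array. By mean percentile, 4 of the 10 lay above the array median in ShSuz12 cells and 3 in ShControl cells. The epithelial label was thus only in part borne out. Of these 10, Cdh1 (-0.76) and Krt8 (-0.41) fell and Cdx2 (1.56) and Krt19 (1.19) rose, where 23.3% of all genes were lower and 17.1% higher. The median log2 fold change of the 10 was -0.01. Their log2 summed level was 12.18 to 12.23 in ShSuz12 cells against 12.77 to 12.94 in ShControl cells. This level sums linear values, so that it follows mostly the brightest marker, Cdh1. Of 10 fibroblast markers, limma passed 6 as higher by 2-fold or more in ShSuz12 cells, where 3.82% of all genes were, and 0 were lower by limma (0 at an unadjusted p under 0.05, 1 by the methods' t-test without adjustment), with a log2 summed level of 15.27 to 15.33 against 14.65 to 14.80 in ShControl cells. Of 7 leukocyte markers 1 was higher and 3 were lower, where 17.1% of all genes were higher and 23.3% lower. Their log2 summed level, 10.06 to 10.15 in ShSuz12 cells against 10.31 to 10.36 in ShControl cells, follows mostly the brightest marker, Cd14. Of 6 endothelial markers 1, Kdr (0.78), was higher, where 17.1% of all genes were. Kdr was dim there, at percentile 30.4 of the array in ShSuz12 cells and 16.1 in ShControl cells. Its other probe set had -0.07 (adjusted p = 0.619 from limma). The endothelial summed level was 7.14 to 7.24 against 6.98 to 7.10. The defining markers Ptprc, Cd3e and Pecam1 read 3.43 to 4.70 on every array, while Cd14 read 9.87 to 10.19. The part of these marker shifts in the results for the YAP and TEAD genes was not tested.

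Target genes of YAP and TEAD did not move as a block. Ankrd1 fell by more than 3-fold in Suz12-depleted cells, Ccn1 fell by less than 2-fold, Ajuba and Amotl2 fell slightly, and Ccn2 and Lats2 did not pass the test. In each probe set, ShSuz12 arrays were compared with ShControl arrays by limma on the deposited log2 values, and a probe set passed where its Benjamini-Hochberg adjusted p, taken over the 31042 tested, was under 0.05. In these whole-culture RNA samples, fewer cells that express a gene and less RNA per cell cannot be told apart.

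Ankrd1, an ankyrin repeat cofactor of the nucleus and the sarcomere, is one of the most used readouts of YAP activity. Its brighter probe set (1367665_at) read 8.41, 8.46 and 8.26 in ShSuz12 cells, against 10.06, 10.03 and 10.20 in ShControl cells. The other probe set (1367664_at) read 8.09, 8.07 and 8.01 in ShSuz12 cells, against 9.75, 9.77 and 9.71 in ShControl cells. All ShSuz12 values lay more than 1 log2 unit below the lowest ShControl value at both probe sets. The log2 fold changes were -1.72 (95% interval -1.89 to -1.55, adjusted p = 1.46e-06 from limma) and -1.69 (95% interval -1.81 to -1.57, adjusted p = 2.40e-07), that is 3.30-fold and 3.22-fold lower. These were the 15th and the 17th lowest values of all probe sets. The level of the brighter probe set stood at percentile 76.3 of the array in ShSuz12 cells and at percentile 92.3 in ShControl cells.

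Ccn1 (Cyr61) and Ccn2 (Ctgf) encode related secreted proteins of the matrix, which bind integrins, and are commonly read together as YAP targets. Ccn1 (1368290_at) read 8.49, 8.47 and 8.64 in ShSuz12 cells, against 9.55, 9.30 and 9.40 in ShControl cells. It fell by 0.88 on the log2 scale (95% interval -1.07 to -0.70, adjusted p = 9.19e-05 from limma), or 1.84-fold, and the groups did not overlap. Ccn2 (1367631_at) read 13.68, 13.65 and 13.73 in ShSuz12 cells, against 13.75, 13.76 and 13.70 in ShControl cells, so that the groups overlapped. Its log2 fold change was -0.05 (95% interval -0.17 to 0.07, adjusted p = 0.493), and the interval leaves out the size of the Ccn1 change. Its signal stood at percentile 99.8 of the array in ShSuz12 cells and 99.9 in ShControl cells. With the median of each array subtracted, Ccn2 passed as lower, at -0.15 (adjusted p = 0.0448). Ccn2, with 3 TEAD motif matches in its window, had a smaller measured change than Ccn1, with 1. A link between the number of matches and the change was not tested. Whether so bright a signal limits the change that can be measured was not tested either.

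Amotl2 and Ajuba are targets that also act on the pathway. Amotl2, an angiomotin family scaffold that holds YAP in the cytoplasm and at junctions, read 12.05, 12.01 and 12.04 at its probe set (1389546_at) in ShSuz12 cells, against 12.24, 12.18 and 12.26 in ShControl cells. Every ShSuz12 value was below every ShControl value, and the gene fell by 0.20 (95% interval -0.32 to -0.08, adjusted p = 0.0178 from limma). This small difference no longer passed when ShSuz12 replicate 2 was left out (adjusted p = 0.0636), nor when ShControl replicate 1 (adjusted p = 0.0512) or replicate 3 (adjusted p = 0.0531) was, with log2 fold changes of -0.18 to -0.22 when any 1 array was left out. Ajuba, a LIM domain protein that binds Lats kinases at junctions and limits their activity, read 10.98, 10.97 and 10.95 in ShSuz12 cells, against 11.26, 11.37 and 11.18 in ShControl cells, at its brighter probe set (1373122_at). Its dimmer probe set (1388230_at) read 8.85, 8.83 and 8.80 in ShSuz12 cells, against 9.36, 9.10 and 9.27 in ShControl cells. The groups did not overlap at either probe set. Ajuba fell by 0.30 (adjusted p = 0.00680) at the first and by 0.42 (adjusted p = 0.00301) at the second.

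Lats2, the kinase that phosphorylates YAP and TAZ and is at the same time induced by them, read 11.33, 11.19 and 11.31 in ShSuz12 cells, against 11.21, 11.26 and 11.28 in ShControl cells (1390207_at). The groups overlapped in full. The log2 fold change was 0.03 (95% interval -0.11 to 0.16, adjusted p = 0.753 from limma), and it took the other sign, -0.073, when the median of each array was subtracted.

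**Figure D2:**
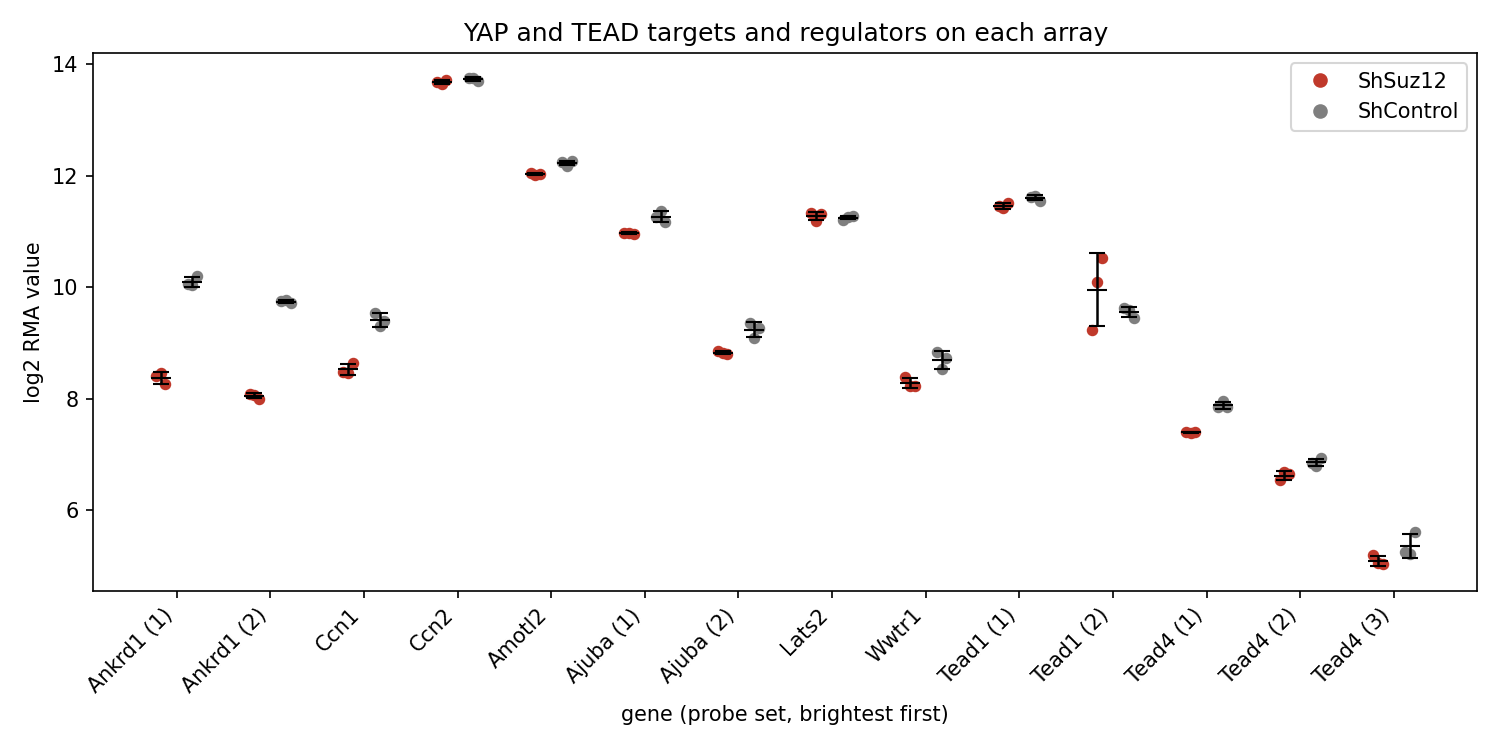
Log2 RMA value (vertical axis) of the 14 member probe sets on each array, red for ShSuz12 and grey for ShControl cells, with the mean and SD (n = 3) in black. Probe sets of 1 gene are numbered from the brightest. The gap between the groups is widest for the 2 Ankrd1 probe sets (-1.72 and -1.69), Ccn2 and Lats2 overlap, and the second Tead1 probe set is spread over 9.24 to 10.53 in ShSuz12 cells.

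Of the regulators, the coactivator Wwtr1 and the DNA-binding factor Tead4 were lower in Suz12-depleted cells by less than 2-fold. Tead1 gave different values at its 2 probe sets, and neither passed. Levels of different probe sets are not compared with each other here, because each has its own response.

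Wwtr1 (TAZ), the paralog of YAP, read 8.39, 8.23 and 8.23 in ShSuz12 cells, against 8.84, 8.53 and 8.74 in ShControl cells (1374092_at). The groups lay apart, by less than the distance between the lowest and highest ShControl arrays. Wwtr1 fell by 0.42 (95% interval -0.62 to -0.22, adjusted p = 0.00719 from limma), or 1.34-fold. With the methods' t-test and Benjamini-Hochberg adjustment it did not pass (adjusted p = 0.0560).

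Tead4, a TEAD factor that is also known from trophoblast and muscle, read 7.41, 7.38 and 7.41 at its brightest probe set (1390902_at) in ShSuz12 cells, against 7.86, 7.96 and 7.85 in ShControl cells. It fell by 0.49 there (95% interval -0.61 to -0.36, adjusted p = 2.72e-04 from limma), or 1.40-fold. The second probe set (1386083_at) read 6.54, 6.68 and 6.65 in ShSuz12 cells, against 6.86, 6.80 and 6.93 in ShControl cells, and fell by 0.24 (adjusted p = 0.0207). The dimmest (1396089_at) read 5.20, 5.05 and 5.03 in ShSuz12 cells, against 5.26, 5.23 and 5.61 in ShControl cells, with a log2 fold change of -0.27 (adjusted p = 0.0838). At each of the 3, all ShSuz12 values lay below all ShControl values. The call at the second one was lost when ShSuz12 replicate 1 was left out (adjusted p = 0.0728), and also when ShControl replicate 1 (adjusted p = 0.0526) or replicate 3 (adjusted p = 0.0656) was, and by the methods' t-test with Benjamini-Hochberg (adjusted p = 0.0539).

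Tead1, a TEAD factor found in many tissues, read 11.45, 11.42 and 11.51 in ShSuz12 cells, against 11.63, 11.64 and 11.55 in ShControl cells, at its brighter probe set (1389287_at). The ShSuz12 values were all below the ShControl values, by a narrow margin, and the log2 fold change of -0.15 (95% interval -0.27 to -0.02) did not pass (adjusted p = 0.0753 from limma). It passed as lower under 5 of 15 alternatives, which were median subtraction (adjusted p = 0.00836), the intensity trend with robust eBayes (adjusted p = 0.00561), the filters at percentiles 40 and 60 (adjusted p = 0.0394 and 0.0240) and the methods' t-test without adjustment. The dimmer probe set (1373808_at) read 9.24, 10.10 and 10.53 in ShSuz12 cells, against 9.63, 9.59 and 9.45 in ShControl cells. ShSuz12 replicate 1 lay below all ShControl arrays there and the other 2 ShSuz12 arrays lay above them, an SD of 0.65 against 0.09 in ShControl cells (n = 3 each). Its log2 fold change was 0.40 (95% interval -0.23 to 1.04, adjusted p = 0.305). Without ShSuz12 replicate 1 it was 0.76 (adjusted p = 0.00488), and this was the only member probe set that passed as higher when an array was left out. At the other 13 member probe sets the SD in ShSuz12 cells was at most 0.104.

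Counted together, 9 of the 14 member probe sets were lower in ShSuz12 cells by limma at the 0.05 threshold, where 19.5% of all probe sets were. None of the 14 was higher, against 14.8% of all probe sets, and the count of higher ones was 0 as well at an unadjusted p under 0.05 and by the methods' t-test. By gene, each represented by its brightest probe set, 6 of 9 were lower, where 23.3% of 14217 genes were. With the median of each array subtracted this became 8 of 9, with Ccn2 and Tead1 added. Under that setting 11752 of the 31042 probe sets were lower, against 6054 without it. The 2 member probe sets that also reached 2-fold were both of Ankrd1, against 0.396% of all probe sets that were lower at that limit. Of the 14 probe sets, 11 had ShSuz12 values entirely below the ShControl values, which was so for 28.1% of all probe sets. The shares over all probe sets and genes include dim ones and were not matched to the members for brightness. By brightest probe set, the members stood at percentile 64.1 of the array (Tead4) or higher in ShSuz12 cells. The median log2 fold change of the 9 genes was -0.30, beside -0.05 over all 14217 genes. With 3 arrays per group, the smallest two-sided p of an exact permutation test is 0.1, so single genes were tested by limma, with the methods' t-test as an alternative.

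In order of their log2 fold change by brightest probe set, the members ran Ankrd1 (-1.72), Ccn1 (-0.88), Tead4 (-0.49), Wwtr1 (-0.42), Ajuba (-0.30), Amotl2 (-0.20), Tead1 (-0.15), Ccn2 (-0.05) and Lats2 (0.03). The 95% interval of Ankrd1 did not overlap that of Ccn1, and that of Ccn1 did not overlap that of Tead4. From Tead4 down, each interval overlapped the next, so the order of those neighbours is not settled.

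**Figure D3:**
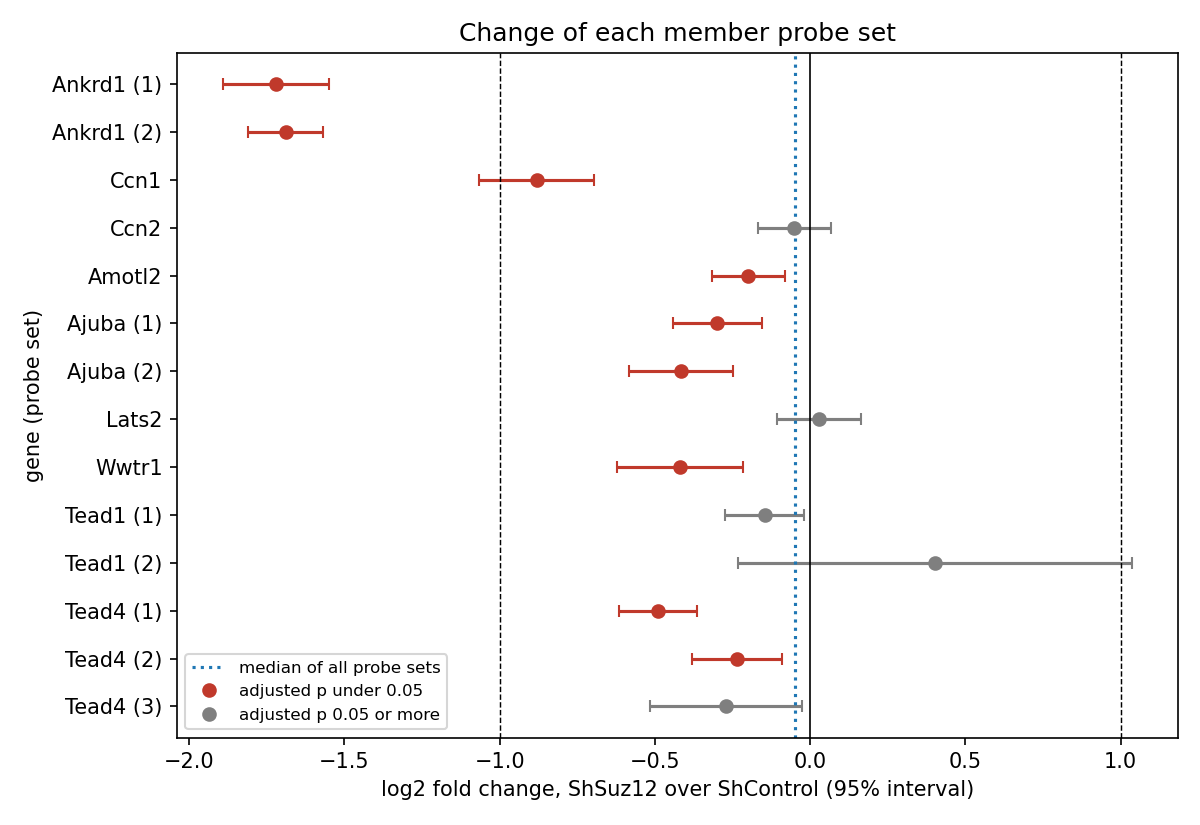
Change on the log2 scale between ShSuz12 and ShControl arrays (n = 3 each, positive when higher in ShSuz12) of the 14 member probe sets with its 95% interval from limma, red where the adjusted p was under 0.05 and grey where it was not. Dashed lines mark 2-fold and the dotted blue line the median of all probe sets (-0.05). The Ankrd1 intervals lie beyond 2-fold and the interval of Ccn1 crosses that line, while Lats2 and Ccn2 lie around 0, Lats2 changing sign with each array's median subtracted.

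Of 13 measured paralogs of the members, limma passed 3 as higher and 1 as lower and 9 did not pass, where 17.1% of all genes were higher and 23.3% lower, with a median log2 fold change of -0.05. Ccn3 (Nov), of the same secreted family as Ccn1 and Ccn2, read 9.36, 9.30 and 9.28 in ShSuz12 cells, against 7.41, 7.26 and 7.42 in ShControl cells, and rose by 1.95 (adjusted p = 2.58e-07), or 3.87-fold. Ccn4 (Wisp1) rose by 0.37 (adjusted p = 0.0115) and Ccn5 (Wisp2) fell by 0.27 (adjusted p = 0.00379). The CCN family thus held a gene more than 3-fold higher, Ccn3, beside Ccn1, which was lower, and Ccn2, which did not pass. Amot, the founding angiomotin, rose by 0.38 (adjusted p = 0.00251) at its brighter probe set and had a value of 0.13 (adjusted p = 0.244) at the other, whereas Amotl2 fell. The other TEAD genes, Tead2 and Tead3, stood at -0.07 (adjusted p = 0.488) and -0.09 (adjusted p = 0.343), and the Lats2 paralog Lats1 had 0.03 (adjusted p = 0.783).

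Among other components of the Hippo pathway, 32 of 33 were measured, with 6 that limma passed as higher, 7 as lower and 19 that did not pass, and a median of -0.08. Of all genes, 17.1% were higher and 23.3% lower, so both shares of the list were near that background. With the median of each array subtracted, 13 were lower, a setting under which 11752 of the 31042 probe sets were lower, against 6054 without it. The list shares Amot, Amotl1, Limd1, Wtip, Lats1, Tead2 and Tead3 with the relatives above. The largest rises were those of Dchs1 and Fat4, atypical cadherins that bind each other between neighbouring cells and in flies act upstream of Hippo. Dchs1 read 7.30, 6.87 and 7.26 in ShSuz12 cells, against 5.22, 5.44 and 5.70 in ShControl cells, and rose by 1.69 (adjusted p = 6.87e-05). A further, dimmer Dchs1 probe set rose by 0.62 (adjusted p = 0.00132). Fat4 read 6.11, 6.49 and 6.45 in ShSuz12 cells, against 5.18, 5.19 and 5.21 in ShControl cells, and rose by 1.16 (adjusted p = 6.69e-05). Both lay below the array median in ShControl cells.

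The largest falls in the list were those of Wwc1 (Kibra), a scaffold that promotes Lats activity, and Vgll3, a cofactor that binds TEAD factors in place of YAP. Wwc1 read 7.18, 7.16 and 7.25 in ShSuz12 cells, against 8.05, 8.12 and 8.28 in ShControl cells, and fell by 0.95 (adjusted p = 2.96e-05 from limma). Vgll3 read 8.83, 8.83 and 8.84 in ShSuz12 cells, against 9.80, 9.76 and 9.69 in ShControl cells, and fell by 0.92 (adjusted p = 6.72e-06). Neither reached 2-fold, and in both the groups were far apart compared with their spread. The core kinases Stk3 and Stk4 (Mst2 and Mst1) did not pass, at -0.05 (adjusted p = 0.514) and -0.28 (adjusted p = 0.0739), and the adaptor Sav1 fell by 0.26 (adjusted p = 0.00714).

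A list of 17 further YAP and TAZ targets from a published signature across cancers, without the members, was set beside them. Of 16 measured, limma passed 6 as higher and 1 as lower, 9 did not pass, and the median log2 fold change was 0.07, where 17.1% of all genes were higher and 23.3% lower. The number of higher ones was 4 to 6 across the alternatives, the 4 being with dim probe sets filtered out, while that of lower ones was 1 to 4. The largest of the 6 rises were those of Fjx1 (0.66, adjusted p = 5.36e-05), the mammalian relative of a fly kinase that modifies Fat and Dachsous cadherins, F3 (0.62, adjusted p = 6.81e-05), the tissue factor that starts coagulation, Gadd45a (0.59, adjusted p = 7.35e-05), a growth arrest and stress gene, and Nuak2 (0.50, adjusted p = 0.00251), a kinase of the AMPK family. Arhgef17 (0.34, adjusted p = 0.0140) and Ccdc80 (0.30, adjusted p = 0.00282) were the other genes that passed as higher. At its dimmer probe sets Arhgef17 did not pass by limma, with values of 0.18 (adjusted p = 0.188) and 0.18 (adjusted p = 0.169). F3 read 9.28, 9.33 and 9.35 in ShSuz12 cells, against 8.64, 8.74 and 8.70 in ShControl cells, without overlap. The gene that fell was Tgfb2 (-0.38, adjusted p = 0.00160), a ligand of the TGF-beta family. The receptor kinase Axl, another frequent readout of YAP, had -0.03 (adjusted p = 0.741), at percentile 98.6 of the array in ShSuz12 cells.

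**Figure D4:**
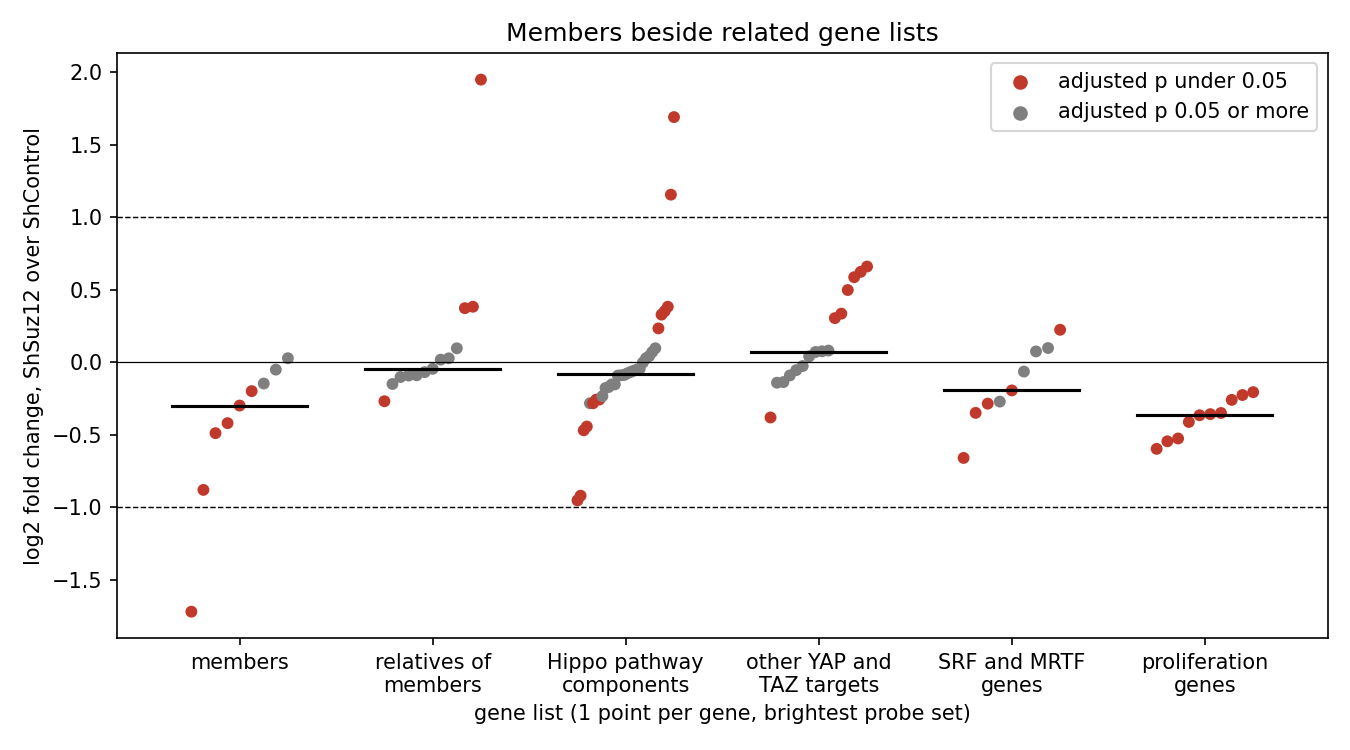
Log2 difference, ShSuz12 minus ShControl, of each measured gene of 6 lists by its brightest probe set, red where the adjusted p was under 0.05, with black bars for the medians and dashed lines at 2-fold. The medians are -0.30 for the 9 members, -0.05 for their relatives, -0.08 for Hippo pathway components, 0.07 for other YAP and TAZ targets, -0.19 for SRF and MRTF genes and -0.36 for proliferation genes. Subtracting each array's median lowers every value by 0.10.

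Genes of serum response factor and its cofactors, which share targets with YAP such as Ankrd1 and Ccn1, were set beside the members. Of 9 measured, limma passed 4 as lower and 1 as higher, where 23.3% of all genes were lower and 17.1% higher, with a median of -0.19. Acta2, smooth muscle actin, fell by 0.66 (adjusted p = 4.22e-05), Tagln by 0.35 (adjusted p = 0.00142) and the cofactor Mrtfa by 0.29 (adjusted p = 0.0350), while Myl9 rose by 0.22 (adjusted p = 0.0361). Tpm1 did not pass at its brightest probe set (0.10, adjusted p = 0.186) or at another (0.05, adjusted p = 0.588). Its remaining probe sets passed as higher by limma, at 0.73 (adjusted p = 4.77e-04), 0.57, 0.40, 0.28 and 0.21, and are not in these counts. The number of higher genes was 0 when ShSuz12 replicate 1 or 2 or ShControl replicate 2 or 3 was left out, and that of lower genes was 2 when any of ShSuz12 replicates 1 to 3 or ShControl replicates 1 and 2 was.

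Proliferation genes were lower in ShSuz12 cells. Limma passed all 10 as lower, where 23.3% of all genes were, by under 2-fold in each case, with a median of -0.36 and a log2 summed level of 13.89 to 13.91 in ShSuz12 cells against 14.25 to 14.29 in ShControl cells. The count was 8 by the methods' t-test with Benjamini-Hochberg and 8 to 10 when any 1 array was left out. Aurkb fell by 0.60 (adjusted p = 5.09e-05), Ccnb1 by 0.55, Plk1 by 0.53 and Cdk1 by 0.41. The part of this shift in the values of the YAP and TEAD genes was not tested. These are RNA levels and not a measure of growth. In the paper's cell counts, ShSuz12 cells reached higher densities than ShControl cells once confluent.

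The genes whose 6 values, each centred on its own mean, lay nearest to those of the brightest Ankrd1 probe set were Aldh3a1, Slc4a4, Mlh3, C1qtnf7 and Deptor, with root mean square differences of 0.07, 0.12, 0.13, 0.16 and 0.16 log2 units over 6 arrays. All 5 were, like Ankrd1, lower on the 3 ShSuz12 arrays, which follows from how they were chosen. The measure was taken over 2 groups of 3 arrays and is given as a description.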

How the data were processed

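The authors hybridized RNA to Affymetrix rat genome arrays and processed the scans in FlexArray 1.6.1, so that the deposited values are log2 RMA values. RMA corrects background, normalizes arrays to each other and summarizes each probe set. Levels are thereby relative between arrays, so a change common to all genes would not be seen.

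After 57 control probe sets were left out, 31042 probe sets were compared (ShSuz12 minus ShControl) in limma (version 3.58.1, R version 4.3.3) by a linear model with moderated variance, two-sided, and p-values were adjusted over all by Benjamini-Hochberg. Intervals are limma's at 95%. The model was tested on simulated data. Symbols came from the platform annotation: 20826 probe sets had 1, 436 several, and 9780 are unnamed here. The brightest probe set stood for each of 14217 genes. All member probe sets were named. From each other list up to 4 genes with the largest change among those past the threshold were named, with the 5 genes nearest to Ankrd1, and other genes that the text gives were chosen after their values were seen. Members and lists were chosen with earlier results of these data known. The number of arrays limits the precision. Alternatives were the methods' t-test, median subtraction, a second quantile normalization, trend with robust eBayes, the replicate block, filters at percentiles 40 and 60, averaged probe sets and leaving out each array. Promoter sequences are RefSeq's. Figures used matplotlib 3.10.9.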

Additional observations from a re-analysis of the deposited data

How the results depend on the processing

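Ankrd1, Ccn1, Ajuba, Tead4 and Suz12 kept their direction and passed at their brightest probe sets in all 15 alternatives run. Log2 fold changes ran from -1.82 to -1.66 for Ankrd1 and from -0.98 to -0.81 for Ccn1. Subtracting each array's median lowered the median of all probe sets by 0.10 and moved the share of higher ones among those that passed to 23.3%, against 43.2%. It gave Lats2 a value of -0.073, 13 lower Hippo pathway components, 4 lower other targets, 3 lower relatives and 0 higher SRF and MRTF genes. All probe sets lower numbered 11752, against 6054. Averaging a gene's probe sets turned Tead1 to 0.13 (adjusted p = 0.512) and left 2 SRF and MRTF genes higher. The methods' t-test without adjustment gave 2 lower other targets and 2 higher SRF and MRTF genes, and with Benjamini-Hochberg 2 lower other targets and 0 higher and 2 lower SRF and MRTF genes. The intensity trend with robust eBayes gave 2 lower other targets. Second quantile normalization and the percentile 60 filter each gave 0 higher SRF and MRTF genes. The brighter Tead1 probe set passed under 5 of 15 alternatives. The cause was not tested.

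Leaving out 1 array at a time gave 0 to 1 member probe sets higher and 7 to 9 lower, 5 to 6 member genes lower, 5 to 6 Hippo components higher and 5 to 8 lower, and 0 to 1 SRF and MRTF genes higher and 2 to 5 lower. Same-numbered replicates did not deviate together (r of 0.02, -0.04 and -0.06). Such values cannot show whether samples of the same number were cultured or processed together. The replicate block changed no call of the members, with 9 member probe sets lower, and 4287 probe sets higher and 5324 lower in all. The percentile 40 filter removed the dimmest Tead4 probe set and the percentile 60 filter also the second, with 2949 probe sets higher, against 4607.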
